A study of Rattus norvegicus with 56 samples.

Results

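The hippocampus 1 year after traumatic brain injury (TBI) was compared with the hippocampus of sham-operated rats at the same post-injury interval. These are 8 of the 56 small RNA libraries of the series, 4 from TBI rats and 4 from sham rats, each chosen because its label gives 1 year as the time after treatment. Each library came from a different rat. The injury was fluid percussion, a pulse of fluid onto the exposed brain that gives a mixed focal and diffuse injury, and sham rats had the surgery alone. Strain, sex, age and the strength of the pulse are not given in the sources used here. The series held 14 groups of 4 rats, TBI and sham at 7 intervals from 24 h to 1 year, and the comparison at 1 year asked which miRNA differences were still present at its last interval. Of 367 listed miRNAs, 315 had a count in at least 1 of the 8 libraries, and the 225 that passed the filter on low counts were tested. Of those 225, 204 were 5p arms, 4 were 3p arms and 17 were listed without an arm, so for miRNAs such as miR-124, miR-132 and miR-223 the arm measured here is not the one best known for its function.

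miRNAs are short RNAs that guide Argonaute proteins to messenger RNAs, mainly through the seed, bases 2 to 8 from the 5′ end, and lower the stability and translation of those messengers. In the injured brain they are known for the immune-linked members, among them miR-155, induced in activated microglia and macrophages, miR-21, induced in reactive glia, and miR-146a, a target of NF-kB that limits Toll-like receptor signalling. The hippocampus borders the ventricles, which hold the choroid plexus, the epithelium that secretes cerebrospinal fluid, and which are lined by ciliated ependymal cells.

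The sequences below are RefSeq mature miRNAs on rat build GRCr8, 5′ to 3′, with the seed in capitals. RefSeq held 331 of the 367 listed miRNAs and 204 of the 225 tested. The miRNAs that set single libraries apart are shown first, because they carry the widest values at 1 year. miR-204-5p, at chr1:229743493-229743514 on the plus strand within Trpm3, and miR-211-5p, at chr1:127189353-127189374 within Trpm1, share the seed UCCCUUU and differ at A17U, counted from the 5′ end with the base of miR-204-5p first. miR-34b-5p and miR-34c-5p, both on the minus strand at chr8:60306657-60306679 and chr8:60306133-60306155, share GGCAGUG and differ at A11G and U23C. miR-183-5p, miR-96-5p and miR-182 lie in that order on the minus strand of chromosome 4, at chr4:59756106-59756127, chr4:59755901-59755923 and chr4:59752249-59752273.
miR-204-5p: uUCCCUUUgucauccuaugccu
miR-211-5p: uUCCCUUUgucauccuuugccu
miR-448-5p: aACAUCCUgcauagugcugcca
miR-34b-5p: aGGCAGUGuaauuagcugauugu
miR-34c-5p: aGGCAGUGuaguuagcugauugc
miR-183-5p: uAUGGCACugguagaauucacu
miR-96-5p: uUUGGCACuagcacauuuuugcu
miR-182: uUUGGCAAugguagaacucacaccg

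The immune-linked miRNAs are shown because their injury effect at 1 year could be set against that at 24 h. miR-155-5p lies at chr11:37261117-37261139 within its host transcript Mir155hg, miR-21-5p at chr10:71902653-71902674 and miR-223-5p at chrX:65151408-65151430.
miR-155-5p: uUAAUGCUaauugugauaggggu
miR-21-5p: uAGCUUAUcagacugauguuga
miR-223-5p: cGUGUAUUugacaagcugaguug
miR-142-5p: cAUAAAGUagaaagcacuacu
miR-146a-5p: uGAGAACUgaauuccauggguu

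The last set holds miRNAs with a low unadjusted p at 1 year. miR-135a-5p lies at chr7:28499221-28499243, miR-132-5p at chr10:60522055-60522076 with miR-212-5p close by at chr10:60521771-60521794, and let-7b-5p at chr7:118684044-118684065. let-7b-5p and let-7d-5p share the let-7 seed GAGGUAG. miR-329-5p, miR-370-5p and miR-485-5p come from the imprinted Dlk1-Dio3 cluster on chromosome 6, at chr6:134547935-134547958, chr6:134354503-134354526 and chr6:134571076-134571097.
miR-329-5p: aGAGGUUUucugggucucuguuuc
miR-370-5p: cAGGUCACgucucugcaguuacac
miR-485-5p: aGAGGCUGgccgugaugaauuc
miR-135a-5p: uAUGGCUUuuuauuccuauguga
miR-132-5p: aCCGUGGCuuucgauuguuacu
let-7b-5p: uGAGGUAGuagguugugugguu
let-7d-5p: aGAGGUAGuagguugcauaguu
miR-137-5p: aCGGGUAUucuuggguggauaa
miR-148a-5p: aAAGUUCUgagacacucugacuc
miR-340-5p: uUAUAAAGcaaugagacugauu

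Libraries held 3854864 to 6762457 counts in sham rats and 4714007 to 5818956 in TBI rats, so that 3 counts are 0.444 to 0.778 per 1e+06 counts of a library before scaling. Levels are given as CPM, counts per 1e+06 counts of a library after TMM scaling over the 8 libraries. The floor of 3 counts reflects counting error alone, because PCR copies of a molecule are counted as separate reads. The 10 miRNAs with the highest mean share of counts were headed by miR-9a-5p (16.3 to 18.5%), a neural miRNA, miR-26a-5p (12.4 to 13.8%) and miR-99a-5p (9.71 to 11.7%), followed by miR-7a-5p, let-7g-5p, miR-218a-5p, let-7f-5p, miR-125b-5p, let-7i-5p and miR-30c-5p. The summed level of the neuron-enriched list was 210804 to 230671 CPM in sham rats and 222562 to 251328 CPM in TBI rats.

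Among the 8 libraries, 2 stood apart. Of these, sham rat 3 was already singled out, by its high level of a choroid plexus miRNA, in the rule for naming miRNAs. Its distance from the other libraries is therefore a description and not the result of a neutral screen. The SD of the log2 difference from the mean of the other 7 libraries, over 185 miRNAs with a mean of at least 10 CPM, was 0.492 in sham rat 3 and 0.550 in TBI rat 3, against 0.204 to 0.315 in the other 6. Both carry the number 19 after the S in their labels, and the labels do not say what that number marks. At 1 year each number was held by a sham rat and a TBI rat, whereas at the other intervals the rats sharing a number were of the same group. Whether libraries sharing a number were handled in separate sets is not stated. Such sets, if any, could coincide with treatment at 1 year and could not be told apart from it. Sham rat 3 was high in miRNAs of the choroid plexus and the ciliated lining, and TBI rat 3 in the sensory cluster. The part of other tissue or cell types in these libraries was not tested. Some of the leading miRNAs and of the lists that turn or move with them are given with and without them.

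miR-204-5p, which is enriched in choroid plexus and in retinal pigment epithelium, measured 2166, 1975, 18825 and 2351 CPM in sham rats 1 to 4 and 2466, 1808, 1599 and 1704 CPM in TBI rats 1 to 4. Sham rat 3 held 9.53 times the median of the other 7 rats, and the remaining sham rats lay among the TBI rats. miR-211-5p, its seed partner, measured 68.6, 50.6, 439.9 and 74.9 CPM in sham rats and 93.0, 65.6, 113 and 44.95 CPM in TBI rats. Sham rat 3 was again the one high library, at 6.41 times the median of the other 7. miR-448-5p, from an intron of the serotonin receptor gene Htr2c, measured 7.72, 7.65, 31.8 and 7.36 CPM in sham rats and 5.99, 6.06, 5.98 and 5.93 CPM in TBI rats. miR-764-5p measured 3.53, 4.69, 18.0 and 5.71 CPM in sham rats and 3.34 to 6.16 CPM in TBI rats. Over these 4 choroid plexus miRNAs the summed level was 19314 CPM in sham rat 3, 2038 to 2439 CPM in the other sham rats and 1724 to 2569 CPM in the TBI rats.

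The miRNAs of multiciliated cells followed in part. miR-34c-5p measured 867, 493, 3821 and 810.0 CPM in sham rats and 796, 573, 747.9 and 604 CPM in TBI rats. miR-34b-5p measured 101, 49.4, 435 and 88.5 CPM in sham rats and 86.0, 62.3, 83.3 and 79.8 CPM in TBI rats. Sham rat 3 was 5.11 and 5.22 times the median of the other rats for miR-34c-5p and miR-34b-5p. miR-449a-5p, of the same seed family but from another gene, was not raised in that rat, at 14.3 CPM against 10.9 to 16.2 CPM in the other sham rats. miR-449c-5p had 0 to 5 counts per library and was not tested.

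The sensory cluster, transcribed as a unit and known from hair cells, retina and pineal gland, was high in TBI rat 3. miR-183-5p measured 22.7, 43.0, 565 and 10.8 CPM in TBI rats 1 to 4 and 36.4, 26.9, 87.8 and 44.9 CPM in sham rats. miR-96-5p measured 5.58, 7.52, 121 and 3.06 CPM in TBI rats and 5.29, 2.47, 19.5 and 7.18 CPM in sham rats. miR-182 measured 30.4, 35.7, 486 and 18.3 CPM in TBI rats and 23.8, 25.4, 157 and 40.7 CPM in sham rats. TBI rat 3 held 15.5, 21.6 and 16.01 times the median of the other 7 rats for miR-183-5p, miR-96-5p and miR-182, and sham rat 3 was second for each. Among the choroid plexus miRNAs, TBI rat 3 had the lowest miR-204-5p of the 8 rats, and it was second of the 8 for miR-211-5p (113 CPM) and miR-764-5p (6.16 CPM).

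**Figure D1:**
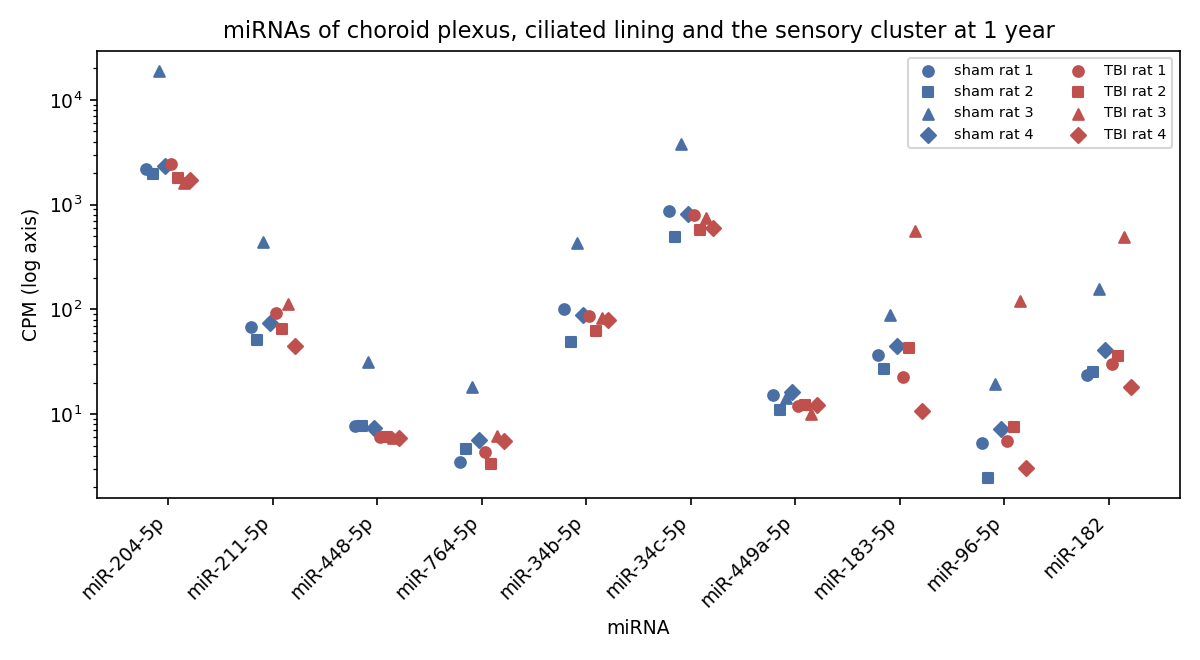
CPM on a log axis for miRNAs of choroid plexus (miR-204-5p, miR-211-5p, miR-448-5p, miR-764-5p), ciliated lining (miR-34b-5p, miR-34c-5p, miR-449a-5p) and the sensory cluster (miR-183-5p, miR-96-5p, miR-182), 1 point per rat, blue for sham and red for TBI. Sham rat 3 (blue triangle) lies above the other 7 rats in the first 6 miRNAs, and TBI rat 3 (red triangle) in the last 3.

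Both patterns were set against the other 48 libraries of the series, with all 56 scaled together. On that scale miR-204-5p was 18891 CPM in sham rat 3 at 1 year, between 20336 CPM in sham rat 3 and 17935 CPM in sham rat 4 at 3 months, and the next library, a sham rat at 24 h, held 5009 CPM. The median of the 56 was 2136 CPM. The same 3 sham libraries were the highest 3 of 56 for miR-211-5p, miR-34b-5p, miR-34c-5p, miR-448-5p and miR-764-5p. For miR-183-5p, TBI rat 3 at 1 year was the highest of 56, at 579 CPM, ahead of a sham rat at 2 weeks at 292 CPM and a sham rat at 3 months at 229 CPM, with a median of 18.4 CPM. The order of these 3 libraries was the same for miR-96-5p (124, 58.3 and 41.1 CPM) and miR-182 (499, 266 and 204 CPM).

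**Figure D2:**
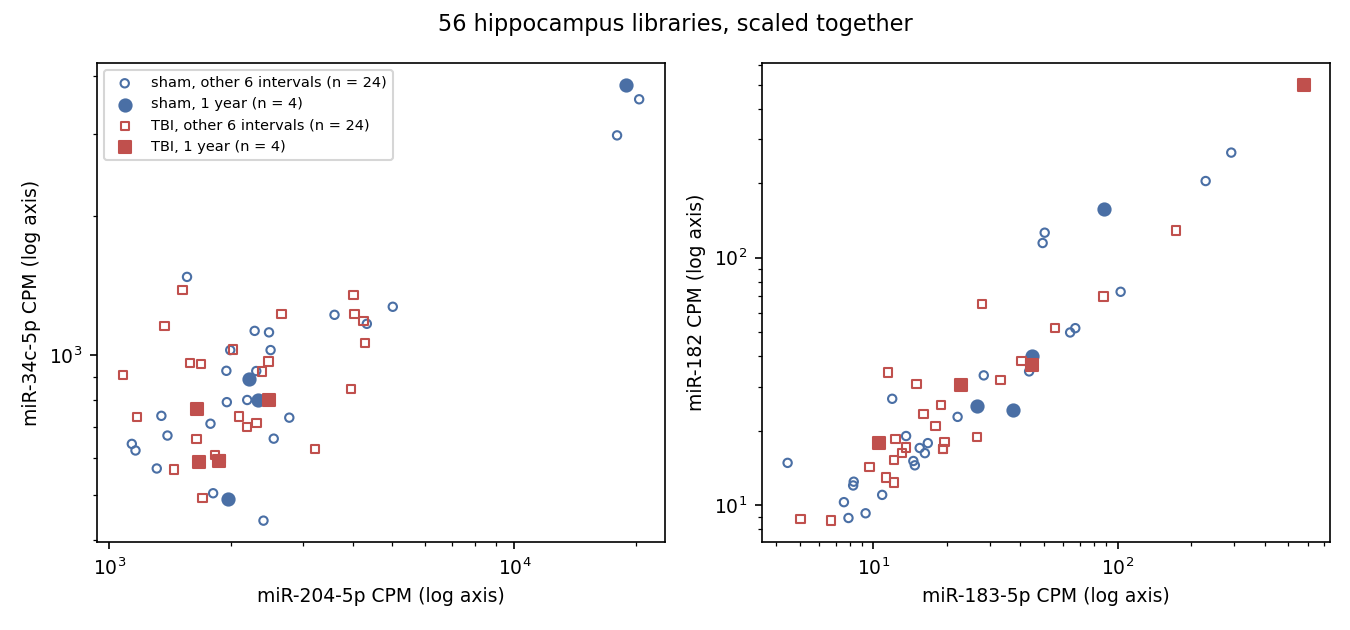
All 56 hippocampus libraries scaled together, with miR-34c-5p against miR-204-5p on the left and miR-182 against miR-183-5p on the right, in CPM on log axes. Filled symbols are the 8 rats at 1 year and open symbols the other intervals, and 3 sham libraries stand apart on the left and 1 TBI library at 1 year lies highest on the right.

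Across all expressed miRNAs, TBI and sham hippocampi at 1 year did not differ for any single miRNA after adjustment. The quasi-likelihood test of edgeR called 0 of 225 miRNAs (0%) at an adjusted p under 0.05, and the lowest adjusted p was 0.426. At an unadjusted p under 0.05 there were 18 miRNAs (8.0%), 8 higher (3.56%) and 10 lower (4.44%) in TBI. The DESeq2 Wald and likelihood ratio tests also called 0, with 26 at an unadjusted p under 0.05 each, and the likelihood ratio test of edgeR called 0 with 7. The estimates lay on both sides of 0, with 107 above and 118 below and a median log2 fold change of -0.0031. In bulk tissue fewer cells of a type and less RNA per cell cannot be told apart.

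The spread of these rats limits what could be seen. The median standard error of a log2 fold change was 0.119, from 0.0398 to 1.23, and the median SD between rats of a group was 0.166 on the log2 scale. The 95% interval lay within -1 and 1 for 204 miRNAs (90.7%) and within -0.5 and 0.5 for 149 (66.2%), so for most miRNAs a difference of 2-fold lay outside the interval. A log2 fold change past 1 in size was estimated for 10 miRNAs. Of these, 8 were the choroid plexus, ciliated lining and sensory miRNAs above (miR-204-5p, miR-448-5p, miR-34b-5p, miR-34c-5p, miR-211-5p, miR-96-5p, miR-183-5p and miR-182). The other 2, named after their values were seen, were miR-3552, at 33.0 CPM in sham rat 3 and 4.18 to 8.09 CPM in the other 7 rats (log2 fold change -1.10 with that rat and 0.18 without it), and miR-122-5p, the liver miRNA, at 21.2 and 11.04 CPM in sham rats 2 and 3 and 4.35 to 5.58 CPM in the other 6. The log2 fold change of miR-122-5p was -1.07, and -0.96 without both libraries that stood apart.

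**Figure D3:**
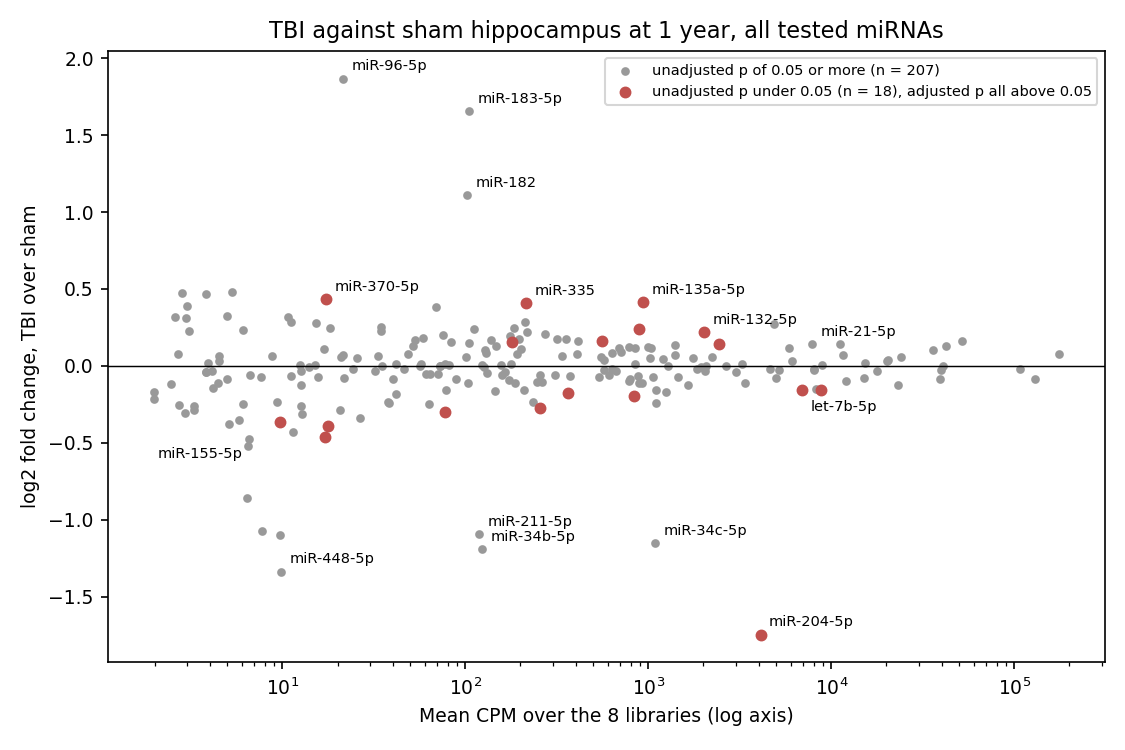
Log2 fold change of TBI over sham at 1 year against mean CPM on a log axis for the 225 tested miRNAs, red where the unadjusted p was under 0.05. Most points lie near 0, and most of those farthest from it are miRNAs of the libraries that stood apart.

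Among the 8 miRNAs higher in TBI by unadjusted p, miR-335 was first. It measured 155, 228, 183 and 174 CPM in sham rats 1 to 4 and 213, 268, 250.1 and 245 CPM in TBI rats. Sham rat 2 lay above TBI rat 1, and the other values did not cross. The log2 fold change was 0.41 (SE 0.122, unadjusted p = 0.00891, adjusted p = 0.426). miR-135a-5p measured 617, 1019, 785 and 802 CPM in sham rats and 1115, 1133, 1025 and 1023 CPM in TBI rats. Every TBI value exceeded every sham value, with the highest sham rat just under the lowest TBI rat, at a log2 fold change of 0.42 (SE 0.132, adjusted p = 0.426). miR-340-5p, from an intron of Rnf130, measured 2276, 2393, 2323 and 2257 CPM in sham rats and 2501, 2616, 2687 and 2397 CPM in TBI rats. Here too the groups did not overlap, by a margin of a few CPM, and the log2 fold change was 0.14 (SE 0.055). miR-148a-5p measured 168, 170.4, 170.0 and 170.4 CPM in sham rats and 179, 192, 186 and 199 CPM in TBI rats. The sham rats lay close together and all TBI rats above them, at a log2 fold change of 0.15 (SE 0.063).

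miR-132-5p comes from the miR-132 and miR-212 transcript, which is induced by neuronal activity through CREB. It measured 1774, 2155, 1774 and 1735 CPM in sham rats and 2190.3, 2149, 2104 and 2213 CPM in TBI rats. Sham rat 2 lay within the TBI rats and the other 3 sham rats below all of them. The log2 fold change was 0.22 (SE 0.076, unadjusted p = 0.0188, adjusted p = 0.426), and without sham rat 2 it was 0.32 with an adjusted p of 0.0314. That was the only call in any setting of this comparison, and it rests on leaving out 1 rat. miR-212-5p from the same transcript measured 882 to 1005 CPM in sham rats and 963 to 1161 CPM in TBI rats, at a log2 fold change of 0.12 (SE 0.078). miR-134-5p, the third activity-regulated miRNA tested, had a log2 fold change of 0.06, so 1 of 3 had an unadjusted p under 0.05, against 8.0% of all 225 miRNAs.

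The miRNAs lower in TBI by unadjusted p were headed by let-7b-5p, of the let-7 family that marks differentiated cells. It measured 7631, 6812, 7036 and 7737 CPM in sham rats and 6397, 6537, 6541 and 6697 CPM in TBI rats. All TBI rats lay below all sham rats, at a log2 fold change of -0.16 (SE 0.055, unadjusted p = 0.0184, adjusted p = 0.426). let-7d-5p measured 9726, 8282, 9806 and 9074 CPM in sham rats and 8727, 8064, 7686 and 8569 CPM in TBI rats, where sham rat 2 lay among the TBI rats. let-7e-5p measured 3461 to 3535 CPM in sham rats and 3051 to 3374 CPM in TBI rats, also without overlap, at a log2 fold change of -0.11 (SE 0.049). Over the 9 let-7 miRNAs, 7 estimates lay below 0 and 2 above (let-7g-5p at 0.13 and let-7i-5p at 0.11), with a median of -0.11 against -0.0031 over all 225. In 14 of the 36 pairs of let-7 miRNAs the sequences differ at 1 or 2 bases. A read may therefore be counted for the wrong member or for more than 1, and single members are uncertain.

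miR-137-5p, from a gene expressed in neurons and tied to synapses, measured 22.5, 22.0, 17.9 and 18.2 CPM in sham rats and 14.1, 17.1, 12.5 and 17.1 CPM in TBI rats. The groups did not overlap, at a log2 fold change of -0.39 (SE 0.149, adjusted p = 0.426). It was the only one of 7 tested neuron-enriched miRNAs with an unadjusted p under 0.05, against 8.0% of all 225, and the others, among them miR-9a-5p at 0.07 (SE 0.046) and miR-129-5p at 0.0087 (SE 0.089), had estimates of -0.12 to 0.24. miR-1306-5p, from within Dgcr8, the gene of a subunit of the miRNA-processing Microprocessor, measured 11.9, 10.6, 11.04 and 10.5 CPM in sham rats and 7.44, 7.73, 9.78 and 8.99 CPM in TBI rats. It did not overlap either, at a log2 fold change of -0.36 (SE 0.134). miR-664-3p at -0.27, miR-374-5p at -0.20 and miR-342-5p at -0.46 overlapped between groups.

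**Figure D4:**
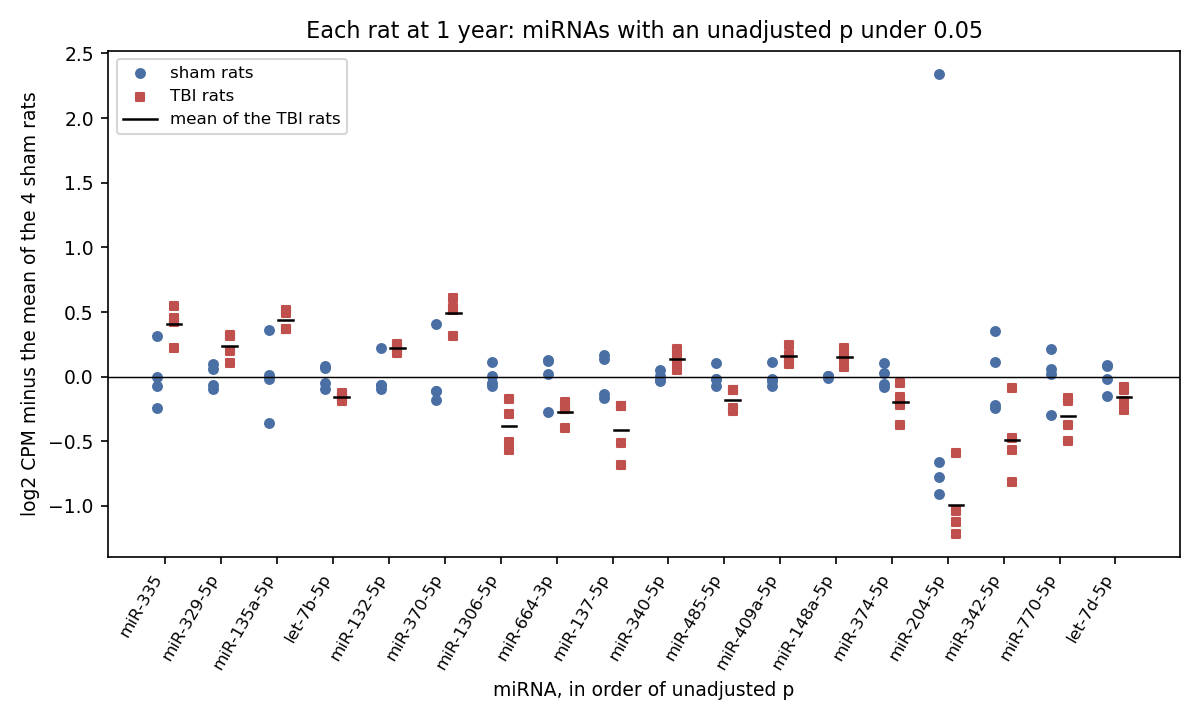
The 18 miRNAs with an unadjusted p under 0.05, in order of p, as log2 CPM of each rat minus the mean of the 4 sham rats, with circles for sham rats, squares for TBI rats and a bar at the mean of the TBI rats. Most differences are under 0.5, and miR-204-5p stands out through 1 sham rat.

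In all, the 4 TBI and 4 sham rats did not overlap for 11 of the 225 miRNAs (4.89%). TBI lay above sham for 4 (1.78%), namely miR-329-5p, miR-135a-5p, miR-340-5p and miR-148a-5p. It lay below for 7 (3.11%), namely let-7b-5p, miR-1306-5p, miR-137-5p, miR-485-5p, miR-448-5p, let-7e-5p and miR-28-5p. The two-sided exact permutation test over the 70 assignments of the 8 rats gives each of these its smallest possible p of 0.0286. The 18 miRNAs above kept their direction in every alternative setting tried. They were picked by their p in these same libraries, which the settings reuse, so the kept direction is a description and no support. The number that kept an unadjusted p under 0.05 ran from 2, with all 56 libraries in the fit, to 18. Without both libraries that stood apart it was 8, and let-7d-5p moved from -0.16 to -0.095.

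The 18 leading miRNAs (8.0% of all 225) held 5 members of the Dlk1-Dio3 cluster, a maternally expressed imprinted cluster of miRNA genes active in brain. The stretch was chosen after these values were seen, from miR-770-5p within Meg3 to miR-409a-5p (chr6:134298094-134579220 of GRCr8, 281 kb), and holds 36 tested miRNAs, so its 5 are a description of a stretch picked for them. miR-329-5p measured 851, 874, 762 and 780.0 CPM in sham rats and 879, 937, 1016 and 1019.9 CPM in TBI rats, without overlap, at a log2 fold change of 0.24 (SE 0.075). miR-370-5p measured 13.2, 12.6, 18.9 and 13.3 CPM in sham rats and 20.5, 20.7, 17.7 and 21.8 CPM in TBI rats. Sham rat 3 lay above 1 TBI rat, and the log2 fold change was 0.43 (SE 0.158) with that rat and 0.63 (SE 0.126, adjusted p = 0.123) without it. miR-409a-5p was at 0.16. In the other direction, miR-485-5p measured 368, 416, 382 and 381 CPM in sham rats and 359.5, 321, 326 and 359 CPM in TBI rats, without overlap, and miR-770-5p was at -0.30 (SE 0.127). Over the stretch 16 estimates lay above 0 and 20 below, with a median of -0.0045, so its members did not move one way.

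The immune-linked miRNAs, which the study named from these libraries over several intervals, gave 0 calls at 1 year. miR-155-5p measured 5.95, 5.93, 12.5 and 5.52 CPM in sham rats and 3.31, 6.48, 7.79 and 5.03 CPM in TBI rats, 16 to 84 counts per library. The highest value was that of sham rat 3, and the log2 fold change was -0.47 (SE 0.36) with that rat and -0.02 (SE 0.27) without it. miR-21-5p measured 7575, 6651, 8248 and 7472 CPM in sham rats and 8566, 8518, 8561 and 7409.9 CPM in TBI rats. TBI rats 1 to 3 exceeded every sham rat and TBI rat 4 lay within them, at a log2 fold change of 0.14 (SE 0.078, adjusted p = 0.450). Without sham rat 3 that fold change was 0.19 (SE 0.076). miR-142-5p, of blood-derived cells and microglia, measured 102 to 152 CPM in sham rats and 121 to 135 CPM in TBI rats, at -0.05 (SE 0.117). miR-223-5p, of neutrophils and monocytes, had 0, 1, 5 and 3 counts in sham rats and 2, 3, 1 and 0 in TBI rats, too few to test.

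The other tested inflammation-responsive miRNAs also gave 0 calls. miR-146a-5p measured 840.3, 643, 709 and 1407 CPM in sham rats and 759.8, 1029, 888 and 771 CPM in TBI rats. Sham rat 4 was high, and the log2 fold change of -0.06 (SE 0.236) became 0.26 without that rat. miR-146b-5p was at -0.08 (SE 0.095), miR-27a-5p at -0.07 (SE 0.182) and miR-34a-5p, a target of p53, at 0.29 (SE 0.144). Of 6 inflammation-responsive miRNAs tested, 2 estimates lay above 0 and 4 below, and 0 had an unadjusted p under 0.05. Without TBI rat 3 there were 3 above and 3 below. Without sham rat 3 there were again 2 above and 4 below. The 2 above, miR-21-5p and miR-34a-5p (0.38, SE 0.146), then had an unadjusted p under 0.05, with 0 adjusted calls. With all rats, the 95% interval was -0.31 to 0.22 for miR-142-5p and -0.03 to 0.32 for miR-21-5p, but -1.28 to 0.33 for miR-155-5p.

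At 24 h some of the same miRNAs differed between TBI and sham rats by much more than the spread of each group, and the change of the injury effect between 24 h and 1 year was tested over all 56 libraries. On the scale of the 56 libraries, miR-155-5p measured 7.20, 8.89, 10.8 and 9.05 CPM in sham rats and 66.0, 71.6, 51.5 and 46.6 CPM in TBI rats at 24 h. The injury effect, the log2 fold change of TBI over sham, was 2.75 (SE 0.24) at 24 h and -0.45 (SE 0.36) at 1 year. The difference of -3.20 (SE 0.44) had an adjusted p of 5.12e-07. miR-21-5p measured 4661 to 7539.8 CPM in sham rats and 15181 to 21241 CPM in TBI rats at 24 h. Its injury effect was 1.71 (SE 0.20) at 24 h and 0.16 (SE 0.19) at 1 year, a difference of -1.55 (SE 0.27, adjusted p = 8.25e-05). miR-223-5p had 0, 3, 1 and 3 counts in sham rats at 24 h and 26, 61, 1 and 35 in TBI rats, where TBI rat 3 was as low as the sham rats. It passed the filter over 56 libraries, in which these TBI rats at 24 h held its highest counts, and was too low to test at 1 year, so its difference of -4.94 (SE 1.13) is a description. Its adjusted p of 0.00302 became 0.247 without sham rat 3 at 1 year. With it, 3 of 244 miRNAs (1.23%) passed the threshold, and 17 (6.97%) had an unadjusted p under 0.05.

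miR-27a-5p measured 12.7 to 18.9 CPM in sham rats and 28.02 to 36.1 CPM in TBI rats at 24 h, without overlap, and 15.4 to 16.7 and 12.3 to 20.0 CPM at 1 year. Its difference of -1.05 (SE 0.32) had an adjusted p of 0.130. miR-142-5p and miR-146a-5p had injury effects of 0.54 (SE 0.15) and 0.43 (SE 0.21) at 24 h, and their differences of -0.56 and -0.48 did not pass (adjusted p = 0.376 and 0.963).

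**Figure D5:**
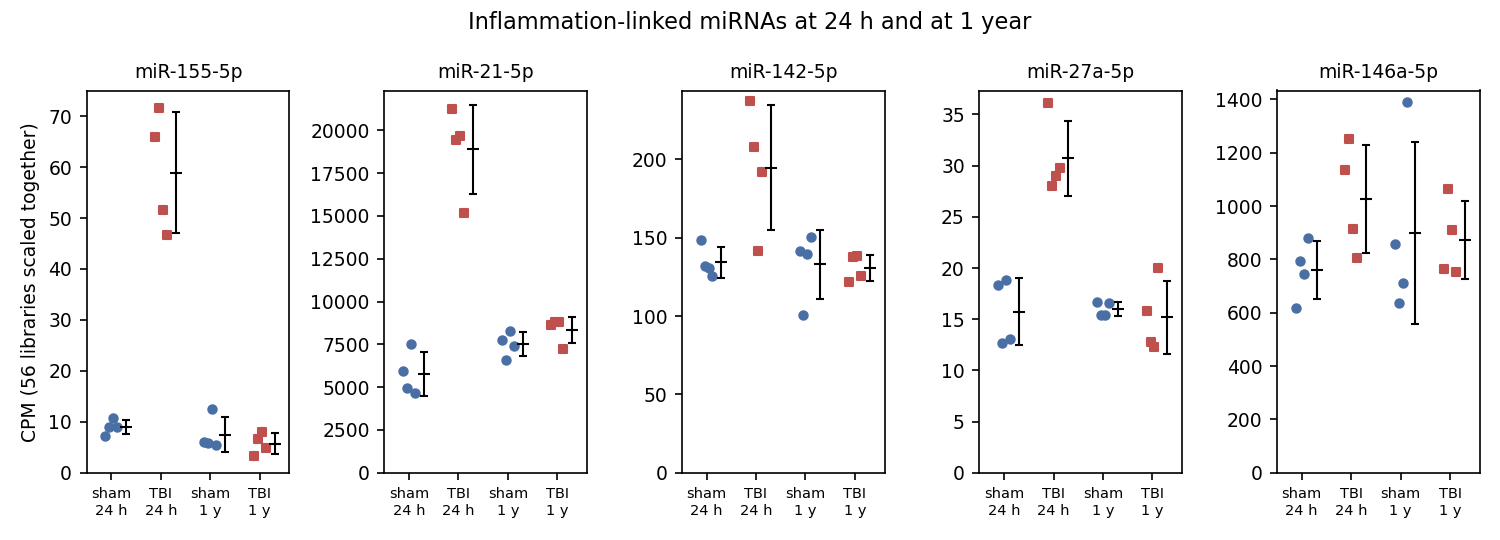
CPM, with the 56 libraries scaled together, of 5 inflammation-linked miRNAs in each rat at 24 h and 1 year, circles for sham and squares for TBI, with the mean and SD of each group of 4 beside the points. At 24 h the groups separate for miR-155-5p, miR-27a-5p and miR-21-5p, and at 1 year they overlap in all 5 panels.

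Against the mean injury effect of the other 6 intervals, 1 of 244 miRNAs (0.410%) was called, with 17 (6.97%) at an unadjusted p under 0.05. It was miR-155-5p, whose difference was -1.65 (SE 0.38, adjusted p = 0.0181). Its injury effects over the intervals between were 1.35 at 2 weeks, 1.19 at 1 month, 1.10 at 2 months, 0.30 at 3 months and 0.53 at 6 months. The call was lost without sham rat 3 (-1.22, adjusted p = 0.277), without TBI rat 1 (-1.46, adjusted p = 0.135) and without TBI rat 4 (-1.59, adjusted p = 0.0606). miR-146a-5p, with injury effects of 1.22 at 2 weeks and 1.36 at 1 month, differed by -0.81 (SE 0.22, adjusted p = 0.0903), and miR-142-5p by -0.54 (SE 0.16, adjusted p = 0.131).

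Lists of cell type markers and families were read by their counts and medians, beside the median of -0.0031 over all 225 miRNAs. The choroid plexus list had 4 of 4 estimates below 0 and a median of -1.21. Without sham rat 3 its estimates were 2 above and 2 below, with a median of -0.06, and miR-204-5p moved from -1.75 (SE 0.743) to -0.19 (SE 0.147, adjusted p = 0.507). miR-448-5p moved from -1.34 (SE 0.597) to -0.34 (SE 0.131, adjusted p = 0.318), with the TBI rats still below the remaining sham rats. The ciliated lining list had 3 of 3 estimates below 0 and a median of -1.15, and of -0.09 without that rat. Without TBI rat 3, miR-183-5p moved from 1.66 (SE 1.12) to -1.06 (SE 0.538), miR-96-5p from 1.87 to -0.88 and miR-182 from 1.11 to -1.29, all with an adjusted p above 0.05. Sham rat 3 was the next highest rat for each. Without both rats miR-183-5p was at -0.56 (SE 0.410), miR-96-5p at 0.02 (SE 0.413) and miR-182 at -0.14 (SE 0.286).

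The medians of the remaining lists lay between -0.11 and 0.12. The oligodendrocyte list (miR-219a-5p, miR-338-5p and miR-3065-5p) had a median of 0.05, of 0.12 without sham rat 3, and miR-219a-5p, which promotes myelination, measured 227 to 274 CPM in sham rats and 221 to 324 CPM in TBI rats. The leukocyte and microglia list had 3 of 3 tested estimates below 0, with a median of -0.11, of -0.02 without sham rat 3, and a summed level of 1028 to 1199 CPM in sham rats and 983 to 1082 CPM in TBI rats. The red blood cell list had a median of -0.04 with 1 of 3 estimates above 0, of 0.30 with 3 above without sham rat 3, and of -0.16 with 0 above without TBI rat 3, so its direction turns with 1 library, and miR-451-5p ran from 42.0 to 135 CPM in sham rats and from 28.4 to 120.5 CPM in TBI rats. The vessel wall list (miR-126a-5p, miR-143-5p and miR-145-5p) had 3 of 3 estimates above 0 and a median of 0.12. Of the 13 listed miRNAs of the miR-17-92 cluster and its paralogues, 6 were tested, 5 with estimates above 0 and a median of 0.07, led among the more abundant by miR-20a-5p at 0.16 (SE 0.084). All 13 were 5p arms, so the list does not cover their 3p arms, and the untested ones had at most 10 counts in any library. The 5 miR-30 miRNAs had estimates of 0.02 to 0.14, a median of 0.05, and without sham rat 3 there were 3 above 0 and 2 below. The miR-148 and miR-152 list held 5p arms, and miR-148a-5p shares its seed AAGUUCU with no other listed miRNA that has a RefSeq sequence. In that list miR-148b-5p at -0.05 and miR-152-5p at -0.35 did not share the direction of miR-148a-5p. The last list held rat counterparts of miRNAs that the paper reports as altered in serum of human patients long after injury. Those patients were compared with separate age-matched controls, so species, tissue and design differ from the rat hippocampus here. In this list of 4, miR-451-5p was at 0.01 (SE 0.493), miR-30d-5p at 0.04, miR-145-5p at 0.16 and miR-204-5p at -1.75. In chronic patients the paper describes miR-451 as raised and miR-204-5p as lowered. The rat estimate of miR-204-5p rests on sham rat 3 and was -0.19 without that rat. miR-451-5p was at 0.51 (SE 0.479) without sham rat 3 and at -0.27 (SE 0.549) without TBI rat 3. The list median of 0.03 became -0.10 without TBI rat 3. None of these lists held an adjusted call.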

How the data were processed

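Small RNA libraries of rat hippocampus were made by the authors with a NEBNext kit, and miRDeep2 trimmed the reads and counted them per mature miRNA of miRBase. bcl2fastq 2.20.0.422 is named in the submitters' processing notes. The deposited table holds raw counts without normalization. Its 56 sample columns were matched to samples by title, and 0 were left unused. The handling of reads matching more than 1 miRNA is not given in the sources used here, and it can move counts between near-identical miRNAs. miR-299a-3p and miR-299b-3p had equal estimates (-0.0031), as did miR-3084b-5p and miR-3084c-5p (-0.04), also when libraries were left out. Each was counted as a separate miRNA among the 225 tested, and the miR-299 pair also among the 36 of the chromosome 6 stretch.

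The 8 libraries at 1 year were analysed with the quasi-likelihood test of edgeR 4.0.16 (R 4.3.3) after filterByExpr and TMM scaling, and p values were adjusted by Benjamini-Hochberg at a threshold of 0.05. SE was taken from the estimate and its F statistic. A two-sided exact permutation test of log2 CPM (prior count 2) over 70 assignments was run for each miRNA. The change of the injury effect between intervals was tested over 56 libraries in 14 groups. Alternatives were other scalings, filters, tests (DESeq2 1.42.0 among them), all 56 libraries, and leaving out rats. Leaving out both libraries that stood apart was added after seeing the data. Figures used Python 3.11.15, pandas 2.3.3 and matplotlib 3.10.9. Steps were tested on simulated data.

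Named miRNAs were those with an adjusted call, the 20 lowest unadjusted p values, the list members, the 10 highest mean CPM, the 5 widest within groups, and the 10 farthest in the sham library high in miR-204-5p. The lists were chosen with earlier results of these data known. No 2 libraries of a group differed by less than sampling noise (lowest chi-square per degree of freedom within a group 43.0). The number after S was checked as a pairing (correlation of deviations 0.114, 0.0284, 0.412 and 0.104 for numbers 17, 18, 19 and 20) and was not taken to pair rats.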

Additional observations from a re-analysis of the deposited data

Results flagged for a closer look

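In 156 groups of 4 rats (78 named miRNAs, sham and TBI), 18 held a rat whose gap to the nearest of the others passed Dixon's 95% limit. Chance would flag about 1 in 20, or 7.8, but the named miRNAs include some chosen for their spread and for their distance in sham rat 3, so the count is not read against that rate. Sham rat 3 gave 10 of them. It was high for miR-204-5p (18825 CPM), miR-211-5p (439.9), miR-448-5p (31.8), miR-764-5p (18.0), miR-34b-5p (435), miR-34c-5p (3821), miR-182 (157), miR-155-5p (12.5) and miR-370-5p (18.9), and low for miR-124-5p (147 CPM against 194 to 203 in the other sham rats). TBI rat 3 gave 4, high for miR-183-5p (565 CPM), miR-96-5p (121) and miR-182 (486) and low for miR-449a-5p (9.96). TBI rat 4 was low for miR-21-5p (7409.9 CPM) and miR-25-5p (3.24). Sham rat 1 was high for miR-98-5p (1618 CPM), and sham rat 2 for miR-132-5p (2155 CPM).

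The injury effect at 1 year differed from that at 24 h by a test of the difference for miR-155-5p (-3.20 on the log2 scale) and miR-21-5p (-1.55). miR-223-5p (-4.94) also passed, but it had 0 to 5 counts per library at 1 year, had its highest counts in TBI rats at 24 h, and did not pass without sham rat 3 (adjusted p = 0.247). The effect of miR-155-5p also differed from the mean of the other 6 intervals (-1.65), a call lost without sham rat 3 (adjusted p = 0.277), TBI rat 1 (0.135), TBI rat 4 (0.0606) or both libraries that stood apart (0.306).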

How the results depend on the processing

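The count of miRNAs called between TBI and sham at 1 year was 0 in every setting except without sham rat 2, where it was 1 (miR-132-5p), so leaving out each rat gave 0 to 1. The lowest adjusted p ran from 0.0314 to 0.878. The fit with a replicate block for the number after S called 0 miRNAs, with 16 at an unadjusted p under 0.05 and a lowest adjusted p of 0.541. Sham and TBI rats with the same number did not all deviate together. Only for number 19 and number 20 did a sham rat correlate best with the TBI rat of its own number. The block changed no call, and it could not address sets of libraries that coincide with treatment.

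The count against 24 h was 2 to 4 in all settings. The count against the other 6 intervals was 1, and it was 2 with the size factors of DESeq2 and without the shallow library at 2 months, 3 with the DESeq2 Wald test, 0 to 3 when rats were left out in turn and 0 without both libraries that stood apart. For miR-155-5p in that comparison the difference without both was -1.40 (adjusted p = 0.306), and for miR-223-5p against 24 h it was -4.19 (adjusted p = 0.435).

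Leaving out a rat, or both libraries that stood apart, turned the direction of these 7 of the named miRNAs followed through all settings, none of them called. The log2 fold changes at 1 year ran from -0.12 to 0.037 for miR-142-5p, from -0.18 to 0.26 for miR-146a-5p, from -1.34 to 0.28 for miR-211-5p, from -1.08 to 0.065 for miR-764-5p, from -1.06 to 2.15 for miR-183-5p, from -0.88 to 2.76 for miR-96-5p and from -1.29 to 2.24 for miR-182. Over all 225 tested miRNAs the estimate changed sign for 38 without sham rat 3 and for 34 without TBI rat 3. Without both libraries that stood apart, miR-211-5p was at 0.04, miR-183-5p at -0.56, miR-96-5p at 0.02 and miR-182 at -0.14. For single miRNAs, 661 values in other settings kept direction and side of the threshold, 12 turned direction, 6 lost and 1 gained a call.

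With 4 rats a group, miR-223-5p (0 to 5 counts) could not be tested at 1 year. The SE of miR-155-5p (16 to 84 counts) was 0.36, and 0.27 without sham rat 3.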
